A study of Mus musculus with 32 samples.

Results

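The early response of the wild-type (WT) mouse colon to AOM/DSS was measured by RNA-Seq of whole colon tissue. Libraries were chosen by their labels: 4 from WT mice after 1 cycle of AOM/DSS (early, D19) and 4 from untreated WT mice (basal, D0), 8 of the 32 libraries of the series. Azoxymethane (AOM) is a colon carcinogen that alkylates DNA, and dextran sulfate sodium (DSS) is a sulfated polysaccharide that injures the colon epithelium when it is given in drinking water. Early mice received 8 mg/kg AOM, then 2.5% DSS for 7 days starting a week later, and recovered for 5 days. Both groups were on the C57BL/6 background with intact *Dnase1l3* and entered the model at 3 months of age. The groups used here hold no mice given AOM or DSS alone, so the effects of the agents cannot be told apart. Beside them stand 4 early and 4 basal libraries labelled *Dnase1l3*-KO (KO) for the gene of a secreted DNase, and 4 late WT libraries taken after 3 cycles. Of 55291 genes in the count table, 18570 had enough counts to be tested between WT early and WT basal colon.

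DSS colitis starts when the surface epithelium and its mucus layer are lost and bacteria reach the lamina propria. Macrophages and stromal cells then release IL-1 family cytokines and chemokines that draw neutrophils and monocytes from the blood, and lymphocyte-derived interferon-γ induces antigen presentation genes and guanosine triphosphatases. Repair follows through crypt regrowth, fibroblast matrix production and return of the absorptive colonocytes and mucus-secreting goblet cells. In whole tissue, fewer cells of a type and less RNA per cell cannot be told apart.

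The 4 early libraries held 18951121 to 39240995 counts and the 4 basal libraries 20326414 to 34377713. Levels are given as CPM, counts scaled to a common library size by the trimmed mean of M values (TMM), in the order of mice 685, 686, 805 and 812 for early and 851, 918, 920 and 927 for basal colon. Pairwise correlations of log2(CPM + 1) were 0.978 to 0.994 within early, 0.985 to 0.992 within basal and 0.939 to 0.966 across the groups. The epithelial marker *Krt8* was at 3233 to 4034 CPM in early and 2809 to 4795 CPM in basal colon, while *Sis* of the small intestine stayed at or below 0.187 CPM in early and 0.95 CPM in basal colon. *Cdx2*, a homeobox factor of the intestinal epithelium, was at 98.7 to 110 CPM in early and 226 to 276 CPM in basal colon. Posterior *Hox* genes mark distal position along the gut, and their mean log2 CPM was 1.62 to 1.90 in early and 0.354 to 0.908 in basal WT colon, without overlap. In KO colon the same score was 1.20 to 1.53 in early and 0.598 to 1.56 in basal mice and overlapped. Mitochondrially encoded mRNAs took 5.34% to 6.09% of counts in early and 7.15% to 11.3% in basal WT libraries. Early mice carry the label prefixes 97 (685 and 686), 115 (805) and 116 (812), and basal mice 123, 134 and 135, so any effect that goes with a prefix cannot be told apart from treatment.

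**Figure D1:**
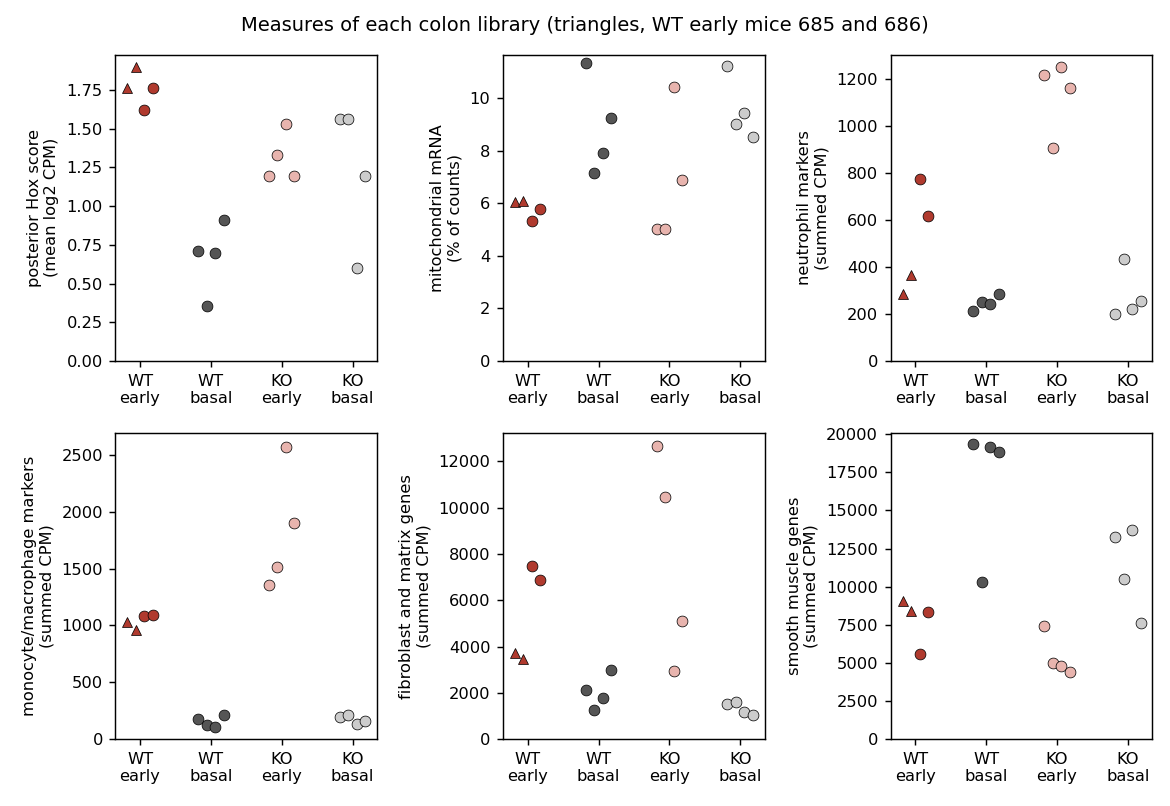
Each panel plots 1 measure (vertical axis, with its unit) for each library of 4 groups (horizontal axis: WT early, WT basal, KO early, KO basal). There is 1 point per mouse, with triangles for WT early mice 685 and 686. The posterior *Hox* score separates WT early (1.62 to 1.90) from WT basal colon (0.354 to 0.908), macrophage markers are higher in every early mouse, and smooth muscle genes are lower in WT early than in WT basal mice.

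Genes were called as DEGs at an adjusted p below 0.05 and a fold change above 2 (edgeR quasi-likelihood test with Benjamini-Hochberg adjustment). In WT early colon 1733 genes rose (9.33% of those tested) and 750 fell (4.04%). These shares are the background for every WT count of list members given below. The rises were also the larger changes, at a median log2 change of 1.95 among genes that rose, against -1.30 among genes that fell and 0.004 over all genes tested. More than 8-fold changes were found for 341 genes that rose and 18 that fell. Early and basal values did not overlap for 1584 of the genes that rose and 653 of those that fell, and 43.8% of all genes tested had such separate groups. The *Hox* score was then added to the fit as a covariate, although its values do not overlap between the groups and little independent information remains. With it 171 genes (0.921%) were called higher and 268 (1.44%) lower, among them 45 of the 1733 and 117 of the 750, while 1440 and 710 kept their sign. *Atp12a*, *Car1*, *Ccl21a*, *Clca1*, *Fxyd4*, *Hoxd13*, *Isl1*, *Krt8*, *Ugt2b37*, *Ugt2b38* and *Vip* turned sign with the score. *Hoxd13* is itself a posterior *Hox* gene, as are the genes that make up the score, so its turn was not independent of the score. None of the macrophage, MHC class II, T cell, complement and fibroblast genes was called with it, against 21, 10, 19, 13 and 23 higher without it, and 1 neutrophil marker was called higher, against 8. Position along the colon and treatment therefore cannot be told apart gene by gene in WT, and this limit holds for every WT comparison. In KO colon the score overlapped between the groups. With it 1634 genes were called higher and 421 lower there, against 1718 and 483 without it.

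**Figure D2:**
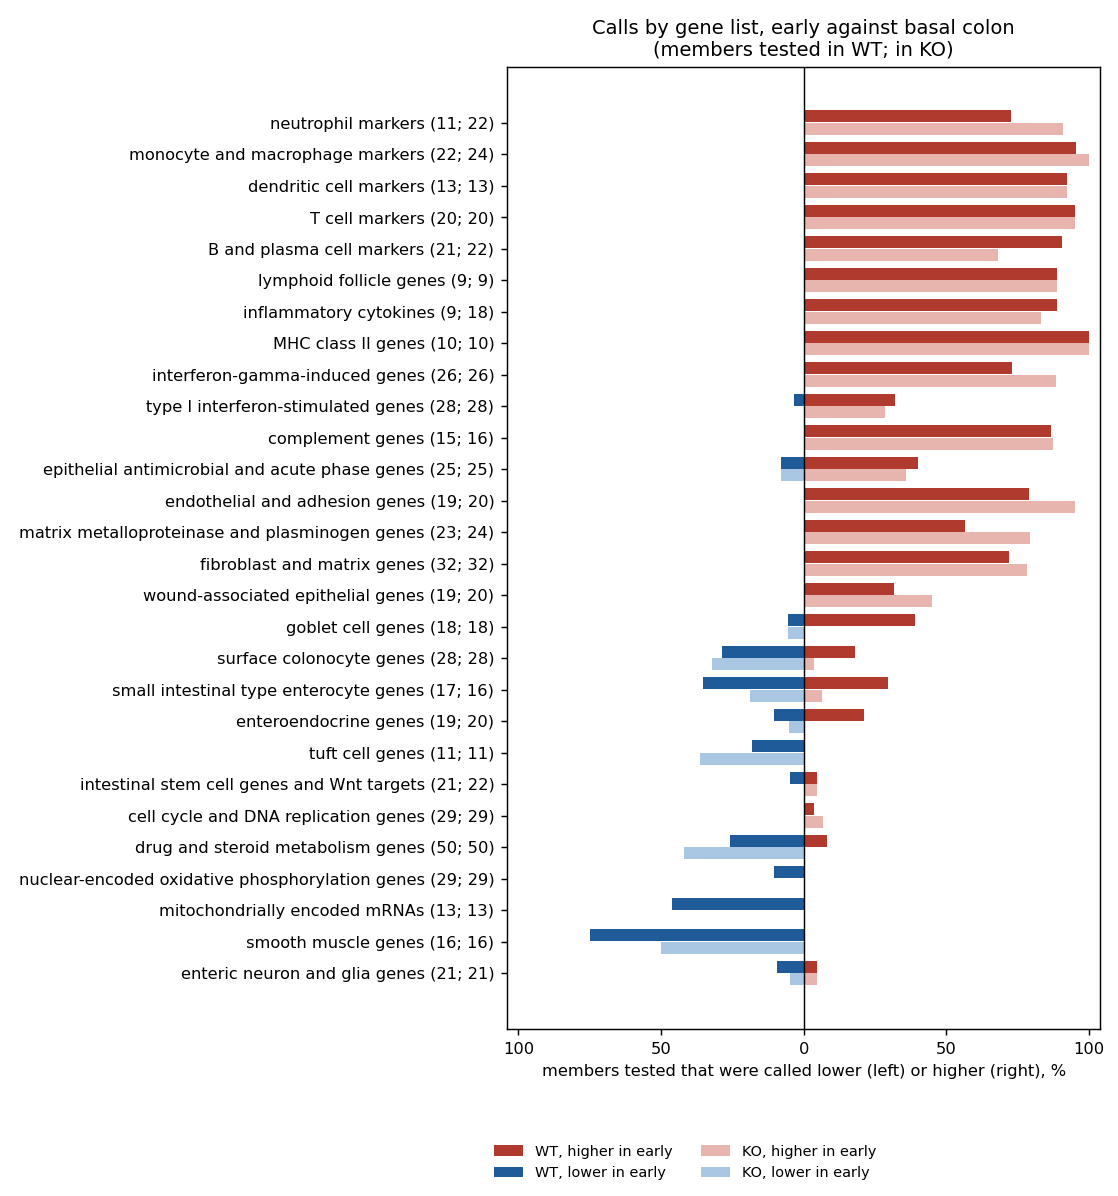
Share of the tested members of 28 gene lists (vertical axis, with the members tested in WT and in KO in brackets) that were called higher (right) or lower (left) in early than in basal colon (horizontal axis, %), with WT in dark and KO in pale bars. Lists of immune, complement and stromal genes extend to the right, smooth muscle and mitochondrial lists to the left, and goblet and absorptive lists to both sides.

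Neutrophil genes were among the largest rises, and they were unequal among the early mice. *Il1b*, the cytokine IL-1β that starts neutrophil recruitment, was at 2.69, 3.29, 52.6 and 42.4 CPM in early and 0.221, 0.102, 0.0905 and 0.188 CPM in basal colon. All 4 early mice lay above all basal mice, but mice 805 and 812 were more than 10 times higher than mice 685 and 686 (log2 fold change 7.30, SE 1.27, adjusted p = 0.00137). *S100a9*, a subunit of the neutrophil protein calprotectin, followed the same order with 0.566, 1.97, 66.7 and 26.4 CPM in early and 0.0883, 0.255, 0.272 and 0.282 CPM in basal colon. Its partner *S100a8* was at 0.991, 1.80, 40.1 and 13.0 CPM in early and 0.132 to 0.188 CPM in basal colon. *Retnlg*, a resistin-like protein of mouse neutrophils, had log2 fold change 7.18 (SE 1.03) and *Csf3r*, the G-CSF receptor, 4.08 (SE 0.66). Of 24 neutrophil markers 11 could be tested and 8 rose, or 13 without early mouse 685, when more genes passed the filter. The others of the list were too low in WT to pass the filter, which a gene can also pass through its early libraries alone, and without the filter 15 of the 24 were called higher. In KO colon 22 of them were tested and 20 rose, at a median log2 change of 6.68 there, against 3.09 in WT over its own 11 genes. All 4 early KO mice carry the prefixes 115 and 116, as do the WT mice 805 and 812, and no early KO mouse carries the prefix 97 of mice 685 and 686, so genotype and prefix cannot be told apart in that comparison. Summed over the list the level was 283, 365, 775 and 618 CPM in early and 212 to 285 CPM in basal WT colon, so that mouse 685 lay within the basal range.

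**Figure D3:**
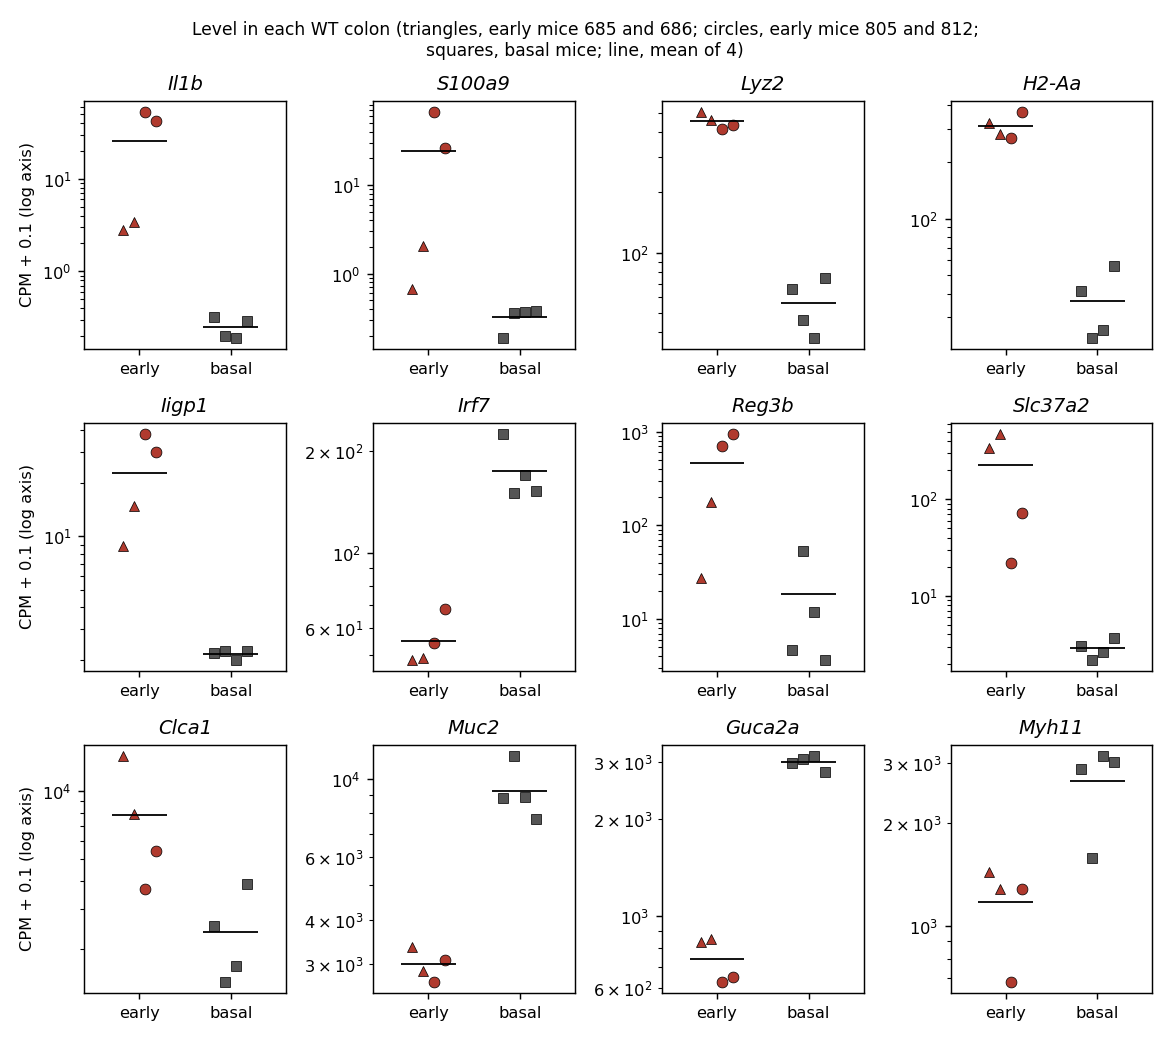
Level of 12 genes (CPM + 0.1, log vertical axis) in the 4 early (left) and 4 basal (right) WT mice, with triangles for early mice 685 and 686, circles for early mice 805 and 812, squares for basal mice and a line at the mean of 4. *Il1b*, *S100a9* and *Reg3b* are split between the pairs of early mice, *Lyz2* and *H2-Aa* are even, *Slc37a2* and *Clca1* are highest in mice 685 and 686, and *Irf7*, *Muc2*, *Guca2a* and *Myh11* are lower in early colon.

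Chemokines that act on neutrophils rose in the same mice. *Cxcl1*, a ligand of the neutrophil receptor CXCR2, was at 0.566, 0.782, 8.65 and 1.90 CPM in early and 0.0442, 0.0510, 0.181 and 0.0942 CPM in basal colon (log2 fold change 4.93, SE 1.07, adjusted p = 0.00436). *Cxcl5*, another CXCR2 ligand, was at 0.896, 2.08, 29.3 and 12.2 CPM in early and 0.0905 to 0.314 CPM in basal colon. Only these 2 of the 6 genes of the list passed the filter, both rose, and without the filter 5 of 6 were called higher. Promoter sequences of 3 induced genes and 1 repressed gene are shown here because their windows hold matches to motifs of the inflammatory and enterocyte factors. Each is the 250 bases before the RefSeq start site on GRCm38.p6, written 5′ to 3′ on the strand of the gene, with matches in capitals. Those of *Cxcl1* (chr5:90890995-90891244, plus strand), *Cxcl10* (chr5:92348890-92349139, minus strand), *S100a9* (chr3:90695722-90695971, minus strand) and *Alpi* (chr1:87101607-87101856, minus strand) read:
Cxcl1: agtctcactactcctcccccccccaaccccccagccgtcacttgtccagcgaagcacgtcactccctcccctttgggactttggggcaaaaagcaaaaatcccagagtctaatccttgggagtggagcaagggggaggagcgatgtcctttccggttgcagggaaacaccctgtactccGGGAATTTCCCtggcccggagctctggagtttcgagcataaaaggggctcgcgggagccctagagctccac
Cxcl10: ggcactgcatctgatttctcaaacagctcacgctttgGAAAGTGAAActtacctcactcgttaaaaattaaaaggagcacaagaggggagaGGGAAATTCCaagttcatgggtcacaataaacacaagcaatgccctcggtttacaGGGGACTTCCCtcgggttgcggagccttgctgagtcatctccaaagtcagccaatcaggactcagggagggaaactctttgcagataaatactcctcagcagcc
S100a9: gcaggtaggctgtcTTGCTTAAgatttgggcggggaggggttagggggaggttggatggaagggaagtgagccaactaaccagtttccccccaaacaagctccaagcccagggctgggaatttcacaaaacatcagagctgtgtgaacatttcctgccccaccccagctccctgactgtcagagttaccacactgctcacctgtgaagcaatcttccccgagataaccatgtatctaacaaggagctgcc
Alpi: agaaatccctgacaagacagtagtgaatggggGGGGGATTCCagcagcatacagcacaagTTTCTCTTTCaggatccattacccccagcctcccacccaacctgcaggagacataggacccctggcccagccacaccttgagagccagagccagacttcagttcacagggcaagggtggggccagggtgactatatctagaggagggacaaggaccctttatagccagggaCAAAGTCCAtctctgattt
The capitals in *Cxcl1* are 2 overlapping matches to the NF-κB consensus, 71 and 70 bases before the start.

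Motifs were searched on both strands of the RefSeq promoter windows, 250 bases before to 50 after the start, for the 12176 tested genes that had one. The NF-κB consensus occurred in 12.0% of the windows of genes that rose, 10.4% of those that fell, 10% of all tested and 8.46% of all 32851 promoters. The interferon-stimulated response element (ISRE) occurred in 7.32% of genes that rose, 1.84% of genes that fell and 3.24% of all tested genes. The C/EBP motif TTGCNNAA occurred in 14.1%, 10% and 8.73% of the same sets, and TTCNNNGAA, the STAT motif, in 8.43%, 4.90% and 6.91%. CAAAGTCCA, a motif of the hepatocyte nuclear factor HNF4, was in 0.927% of genes that rose and 1.43% of genes that fell, against 0.460% of all tested. Those shares rest on few windows, 10 of 1079, 7 of 490 and 56 of 12176. A match is a stretch of letters and says nothing of whether a factor was bound.

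Markers of monocytes and macrophages rose almost without exception and evenly across the early mice. Of 24 genes 22 were tested and 21 rose (median log2 fold change 2.85), and in KO colon all 24 were tested and rose (3.57). *Lyz2*, the lysozyme of myeloid cells, was at 503, 457, 414 and 434 CPM in early and 65.6, 45.9, 37.5 and 74.3 CPM in basal colon. The early mean was 452 ± 38.1 CPM (SD, n = 4) and the basal mean 55.8 ± 17.0 CPM (SD, n = 4), with a fitted fold change of 7.99. *Adgre1*, which encodes the macrophage surface protein F4/80, was at 31.7, 26.6, 24.1 and 28.8 CPM in early and 4.42, 2.04, 2.13 and 6.06 CPM in basal colon. *Mrc1*, the mannose receptor of resident macrophages, was at 29.4 to 41.2 CPM in early and 2.35 to 5.65 CPM in basal colon. *Gpnmb*, a glycoprotein of phagocytes laden with lipid or debris, was at 20.6 to 26 CPM in early and 0.543 to 1.51 CPM in basal colon (log2 fold change 4.48, SE 0.24, adjusted p = 1.69e-05). The pairs of early mice that differed in *Il1b* thus did not differ in this way for macrophage genes. Summed over the list, the level was 962 to 1088 CPM in early and 106 to 215 CPM in basal colon.

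Among monocyte-attracting chemokines, *Ccl8* and *Ccl2* were highest in mice 805 and 812, while the level summed over the list was 354, 356, 311 and 337 CPM in early and 155 to 288 CPM in basal colon. *Ccl8* was at 13.8, 16.4, 31.4 and 30.8 CPM in early and 0.498 to 1.51 CPM in basal colon (log2 fold change 4.63, SE 0.41). *Ccl2*, the main ligand of the monocyte receptor CCR2, was at 1.23, 1.68, 11.4 and 4 CPM in early and 0.181 to 1.19 CPM in basal colon, and it was not called with early mice 685 and 686 alone (adjusted p = 0.098). *Ccl3* had 143 counts over the early and 2 over the basal libraries, a ratio of 47.0 with a 95% counting interval of 12.8 to 392 (exact Poisson). In all, 5 of 7 tested members of this list rose. Counting intervals cover counting error only.

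Antigen presentation rose as a block. All 10 major histocompatibility complex (MHC) class II genes rose in WT, at a median log2 change of 2.90, and all 10 in KO colon (3.38). *H2-Aa*, the α chain of I-A, was at 322, 280, 268 and 367 CPM in early and 41.4, 23.2, 25.4 and 56.0 CPM in basal colon (log2 fold change 3.06, SE 0.27, adjusted p = 6.7e-05). *Ciita*, the transactivator that the class II genes need, was at 12.4, 12.4, 13.8 and 18.6 CPM in early and 0.971, 1.07, 1.04 and 2.45 CPM in basal colon. The groups were far apart and the early mice close together for both genes. *Itgax*, which encodes CD11c of dendritic cells and some macrophages, was at 13.2 to 17.6 CPM in early and 1.90 to 3.20 CPM in basal colon, and 12 of 13 dendritic cell markers rose (median log2 fold change 2.61).

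Lymphocyte genes rose too. Of 20 T cell markers 19 were called higher, at a median log2 change of 2.58 in WT and 3.70 in KO colon. *Cd4*, the coreceptor of helper T cells that macrophages can also express, was at 16.6, 10.8, 12.6 and 13.2 CPM in early and 1.32, 1.12, 0.407 and 1.73 CPM in basal colon. *Cd2*, an adhesion receptor of T and NK cells, was at 2.18 to 2.69 CPM in early and 0.204 to 0.502 CPM in basal colon. Of the markers of B and plasma cells 21 were tested and 19 rose (median log2 fold change 3.40), against 15 of 22 in KO colon. *Ms4a1*, which encodes CD20, was at 5.14, 3.27, 8.50 and 8.07 CPM in early and 0.136 to 0.377 CPM in basal colon. *Ighd*, the IgD heavy chain of naive B cells, was at 4.78 to 10.8 CPM in early and 0.0905 to 0.628 CPM in basal colon. The summed level of the list behaved otherwise, with 7169, 5009, 3704 and 1319 CPM in early and 898 to 1922 CPM in basal colon, so that mouse 812 lay within the basal range.

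Genes of organized lymphoid tissue were part of these rises. Of 9 tested lymphoid follicle genes 8 rose, at a median log2 change of 3.83 in WT and 3.64 in KO colon. *Cr2*, the complement receptor of mature B cells and follicular dendritic cells, was at 3.35, 1.33, 6.43 and 6.93 CPM in early and 0 to 0.126 CPM in basal colon. *Ccl21a*, a ligand of CCR7 made by lymphatic vessels and lymphoid stroma, was at 113 to 139 CPM in early and 10.5 to 35.7 CPM in basal colon. *Cxcl13*, which draws B cells into follicles, was at 5.52, 4.60, 31.7 and 10.8 CPM in early and 0.634 to 1.17 CPM in basal colon. Whether a follicle lay within a piece of tissue was not recorded, and its part in these values was not tested.

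Markers of other granulocytes were low but called in part. *Cma1*, a mast cell chymase, was at 1.79 to 3.36 CPM in early and 0 to 0.136 CPM in basal colon. Its log2 fold change was 5.19 (SE 0.45) in WT and 1.48 (adjusted p = 0.383) in KO colon, and the difference between genotypes was not called. *Ccr3*, the eotaxin receptor of eosinophils, had 155 counts in early and 2 in basal libraries. Its ligand gene *Ccl11* was at 11.7 to 23.2 CPM in early and 1.48 to 3.44 CPM in basal colon. *Alox15*, a lipoxygenase of eosinophils and macrophages, was at 1.59 to 3.30 CPM in early and 0 to 0.0942 CPM in basal colon. Of the lists, 3 of 6 tested mast cell and 4 of 5 tested eosinophil markers rose. The summed mast cell level overlapped, at 50.4 to 82.1 CPM in early and 55.2 to 76.3 CPM in basal colon, and with mice 805 and 812 alone 2 eosinophil markers rose and 1 fell.

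Genes induced by interferon-γ rose in larger number than the genes typical of type I interferon. Of 26 interferon-γ-induced genes 19 rose (median log2 fold change 1.65) and none fell, and in KO colon 23 rose (2.85). *Iigp1*, an immunity-related GTPase, was at 8.68, 14.8, 38.0 and 29.9 CPM in early and 2.08, 2.14, 1.90 and 2.13 CPM in basal colon (log2 fold change 3.45, SE 0.43, adjusted p = 0.000238). *Tgtp2*, another such GTPase, was at 11.1, 16.7, 34.8 and 31.9 CPM in early and 1.81 to 3.26 CPM in basal colon. *Cxcl9*, a ligand of CXCR3 on activated T cells, was at 1.75, 4.86, 19.3 and 13.8 CPM in early and 0.272 to 0.927 CPM in basal colon. Mice 805 and 812 were the higher pair for all 3 genes. *Cxcl10*, chosen after its values were seen for its printed promoter, had log2 fold change 3.52 (SE 0.68, adjusted p = 0.00241) and carries a match to the interferon-stimulated response element 213 bases before its start, with NF-κB matches nearer to it. Of the 28 type I interferon-stimulated genes 9 rose and 1 fell (median log2 fold change 0.77). With mice 685 and 686 alone 2 of them rose and with mice 805 and 812 alone 16, against 17 and 22 of the interferon-γ-induced genes, and 5 and 4 rose when mouse 805 or mouse 812 was left out. The response element was in 12 of the 20 windows of the type I list and in 10 of the 17 of the interferon-γ list.

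The gene that fell was *Irf7*, the transcription factor that amplifies type I interferon production. *Irf7* was at 48.2, 48.7, 54.2 and 68.0 CPM in early and 224, 150, 170 and 152 CPM in basal colon (log2 fold change -1.68, SE 0.16, adjusted p = 7.7e-05). Every early mouse was below every basal mouse. In KO colon the values were 37.7 to 137 CPM in early and 101 to 253 CPM in basal mice, with log2 fold change -0.87 (adjusted p = 0.279). *Ddx60*, an antiviral helicase of the same list, was at 15.2, 16.1, 23.3 and 36.2 CPM in early and 6.70 to 8.15 CPM in basal WT colon. Late WT colon had *Irf7* at 51.3 to 71.2 CPM, close to the early values.

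*Dnase1l3* itself, the DNase that digests chromatin in microparticles and is made by macrophages and dendritic cells, rose in WT. It was at 8.58, 7.22, 8.70 and 7.79 CPM in early and 3.09, 2.39, 1.81 and 3.61 CPM in basal colon (log2 fold change 1.54, SE 0.20, adjusted p = 0.000333). The libraries labelled KO held 3.66, 4.14, 0.702 and 6.78 CPM in early and 5.08, 3.02, 1.65 and 3.33 CPM in basal mice. Counts summed over the gene thus do not check the KO label, since which exons the allele removes is not given in the sources used here. The difference between genotypes in the change was 1.32 (SE 0.65) on the log2 scale with an adjusted p = 0.634. Of 11 tested genes of DNA sensing and DNases 5 rose, among them *Tlr9*, a receptor for unmethylated DNA, at 2.23 to 3.64 CPM in early and 0.0453 to 0.659 CPM in basal colon. *Ifi204*, a DNA-binding protein of myeloid cells, was at 3.77 to 11.3 CPM in early and 0.362 to 0.942 CPM in basal colon.

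Most complement genes rose. Of 15 tested 13 rose (median log2 fold change 2.67), and in KO colon 14 of 16 (3.46). *C4b* was at 94.3, 87.9, 141 and 125 CPM in early and 10.7, 6.37, 8.10 and 12.3 CPM in basal colon (log2 fold change 3.55, SE 0.23, adjusted p = 2.79e-05). *C1qa*, a subunit of the initiating C1q complex made by macrophages, was at 65.8 to 86.9 CPM in early and 8.00 to 18.4 CPM in basal colon.

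Epithelial defence genes varied widely among the early mice. *Reg3b*, a C-type lectin with antibacterial activity, was at 27.2, 179, 699 and 945 CPM in early and 4.59, 53, 11.7 and 3.58 CPM in basal colon. Early mouse 685 lay below basal mouse 918, so the groups overlapped although the gene was called (log2 fold change 4.66, SE 1.18, adjusted p = 0.00924). With early mice 685 and 686 alone it was not (2.51, adjusted p = 0.0797). *Reg3g*, its close relative, was at 12.2, 55.8, 187 and 174 CPM in early and 4.99, 33.4, 7.29 and 3.36 CPM in basal colon and overlapped likewise, and its call was lost without basal mouse 851 or 920 (adjusted p = 0.0554 and 0.0559). *Lcn2*, which binds bacterial siderophores, was at 3.25, 2.89, 38.2 and 16.2 CPM in early and 0.560 to 1.48 CPM in basal colon. *Nos2*, the inducible nitric oxide synthase, was at 4.91, 20.5, 60.4 and 70.8 CPM in early and 0.662 to 2.92 CPM in basal colon. *Arg2*, an arginase that uses the same substrate, was at 2.69 to 3.40 CPM in early and 2.40 to 3.52 CPM in basal colon and did not pass the test (log2 fold change 0.12, SE 0.17). *Dmbt1*, a large mucosal scavenger glycoprotein, was among the most abundant mRNAs with 7128, 9886, 12733 and 14135 CPM in early and 4286, 6876, 5101 and 4477 CPM in basal colon. Its log2 fold change of 1.06 fell to 0.92 to 0.99 and under the threshold without mouse 851, 927, 805 or 812. *Retnlb*, the goblet cell product RELMβ, went the other way with 288, 148, 337 and 339 CPM in early and 810, 467, 909 and 1109 CPM in basal colon (log2 fold change -1.58, SE 0.30). With the spread estimated over all 32 libraries, *Dmbt1* and *Retnlb* were not called (adjusted p = 0.124 and 0.156). In KO colon *Retnlb* had log2 fold change 0.45 (adjusted p = 0.769), and the difference between genotypes was not called (adjusted p = 0.389). Of 25 tested genes of this list 10 rose and 2 fell.

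Cytokines with tissue roles moved with these groups. *Il33*, an alarmin of stromal and epithelial cells, was at 5.14, 6.13, 23.3 and 17.3 CPM in early and 0.713 to 1.5 CPM in basal colon. *Il1rn*, the natural IL-1 receptor antagonist, was at 55.0 to 84.7 CPM in early and, already expressed without treatment, at 18.2 to 31.7 CPM in basal colon. *Csf1*, the growth factor of macrophages, was at 16.5 to 20.3 CPM in early and 4.94 to 8.32 CPM in basal colon. Of 28 cytokines 9 passed the filter and 8 rose, and without the filter 15 were called higher.

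Stromal and matrix-remodelling genes rose. Of 32 fibroblast and matrix genes 23 rose (median log2 fold change 1.20), against 25 in KO colon (2.24). *Dcn*, the matrix proteoglycan decorin, was at 277, 262, 332 and 379 CPM in early and 77.8, 30.1, 36.8 and 71.3 CPM in basal colon (log2 fold change 2.52, SE 0.30, adjusted p = 0.000194). *Pdpn*, podoplanin of activated fibroblasts and lymphatic vessels, was at 13.5 to 26.6 CPM in early and 1.68 to 5.34 CPM in basal colon. *Mmp10*, the metalloproteinase stromelysin-2, was at 6.08, 8.17, 53.8 and 21.5 CPM in early and 0.306 to 0.879 CPM in basal colon (log2 fold change 5.08, SE 0.76, adjusted p = 0.000617). *Mmp2*, a gelatinase of fibroblasts, was at 63.1, 55.2, 129 and 115 CPM in early and 15 to 31.9 CPM in basal colon. Of 23 tested genes of the metalloproteinase and plasminogen list 13 rose (median log2 fold change 1.70). The summed level of the fibroblast list was 3724, 3478, 7501 and 6859 CPM in early and 1268 to 3001 CPM in basal colon, again highest in mice 805 and 812. When mice 685 and 686 alone were set against the basal mice, 12 of the 32 rose and 1 fell, and with mice 805 and 812 alone 27 rose.

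Vessel and adhesion genes rose as well. *Pecam1*, which encodes CD31 of endothelial cells, was at 49.2 to 58.6 CPM in early and 15.8 to 27.3 CPM in basal colon, a log2 fold change of 1.29 (SE 0.15). *Vcam1*, an adhesion molecule for leukocytes, was at 19.6, 16.9, 39.1 and 29.7 CPM in early and 2.53 to 4.59 CPM in basal colon. *Itgb2* and *Selplg* of the same list are leukocyte genes and had log2 fold changes of 3.15 and 3.03. In all, 15 of 19 tested members rose (median log2 fold change 1.63).

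Smooth muscle genes fell. Of 16 genes 12 were called lower and none higher, at a median log2 change of -1.20 in WT, and 8 were called lower in KO colon (-1.30), or 5 without KO mouse 804, 852 or 872. *Myh11*, a contractile myosin of the muscle wall, was at 1436, 1281, 685 and 1284 CPM in early and 2871, 1578, 3146 and 3022 CPM in basal colon (log2 fold change -1.20, SE 0.27, adjusted p = 0.00523), and with the spread of all 32 libraries it was not called (adjusted p = 0.255). *Synm*, an intermediate filament protein of muscle, was at 209, 192, 98.4 and 185 CPM in early and 742, 341, 694 and 664 CPM in basal colon. Basal mouse 918 was the lowest basal mouse for both, and early mouse 805 the lowest early one. *Pln*, phospholamban, was at 0.947 to 3.58 CPM in early and 5.81 to 10.5 CPM in basal colon. With the *Hox* score in the fit 13 of the 16 were called lower. Of 21 neuron and glia genes of the gut wall 1 rose and 2 fell, beside 9.33% and 4.04% of all genes tested. Without basal mouse 918 4 fell, and with the *Hox* score 6 were called lower and none higher. *Vip*, the vasoactive peptide of enteric neurons, rose to 33.2 to 40.5 CPM in early colon, against 10.9 to 20.5 CPM in basal colon, with log2 fold change 1.14 that was 0.99 without basal mouse 918 and was not called over all 32 libraries (adjusted p = 0.162). *Gfap* of enteric glia was at 3.11, 2.42, 6.40 and 4.26 CPM in early and 13.9, 6.17, 10.7 and 11.4 CPM in basal colon.

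Goblet cell genes were divided. *Muc2*, the gel-forming mucin, fell to 3355, 2854, 2670 and 3067 CPM in early colon, against 8836, 11607, 8851 and 7677 CPM in basal colon (log2 fold change -1.65, SE 0.16, adjusted p = 9.46e-05). It was the most abundant called gene of the list over the 8 WT libraries together, but *Zg16* and *Clca1* were higher in every early mouse. *Muc2* was the only one of the 18 genes that fell, and 7 rose. *Zg16*, a lectin of the mucus, was at 4119, 3974, 4010 and 4747 CPM in early and 1571, 2194, 1231 and 1466 CPM in basal colon. *Tff3*, the trefoil factor packed with mucin, was at 870 to 981 CPM in early and 336 to 492 CPM in basal colon. With the spread of all 32 libraries *Zg16* and *Tff3* were not called (adjusted p = 0.0704 and 0.0503). *Clca1*, a protease of the mucus, was at 14230, 7883, 3687 and 5438 CPM in early and 2521, 1438, 1687 and 3868 CPM in basal colon, and early mouse 805 lay below basal mouse 927. With early mice 805 and 812 alone it was not called (adjusted p = 0.0771). *Best2*, a bicarbonate channel of goblet cells, was at 19.9 to 30.1 CPM in early and 1.15 to 2.13 CPM in basal colon (log2 fold change 3.94, SE 0.22, adjusted p = 1.69e-05). *Fer1l6* was at 70.4 to 154 CPM in early and 18 to 35.0 CPM in basal colon. In KO colon *Muc2* fell as well (-1.90, adjusted p = 0.0052), while none of the 18 rose and their median log2 fold change was -0.20, against 0.62 in WT. *Clca1* had log2 fold change -0.37 (adjusted p = 0.487) in KO colon, and its difference between genotypes was not called (2.07, SE 0.53, adjusted p = 0.194). *Muc3a*, a membrane-bound mucin of enterocytes, fell to 20.6 to 30.3 CPM in early colon, against 75.6 to 122 CPM in basal colon.

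Absorptive genes of the surface epithelium fell in larger number than they rose. Of 28 surface colonocyte genes 8 fell and 5 rose. *Guca2a*, the peptide guanylin that regulates fluid secretion, was at 834, 850, 629 and 649 CPM in early and 2976, 3073, 3132 and 2788 CPM in basal colon (log2 fold change -2.03, SE 0.14, adjusted p = 3.12e-05). *Car1*, a carbonic anhydrase of colonocytes, was at 520, 760, 749 and 637 CPM in early and 2542, 5993, 2275 and 1897 CPM in basal colon. *Slc9a3*, the sodium-hydrogen exchanger NHE3, was at 140 to 211 CPM in early and 350 to 521 CPM in basal colon, and *Cdhr5*, a protocadherin of the brush border, at 393 to 483 and 784 to 1099 CPM. *Scnn1g*, the γ subunit of the sodium channel ENaC, went the other way with 1.32 to 2.74 CPM in early and 0 to 0.204 CPM in basal colon. Enterocyte genes typical of the small bowel were also divided, with 6 of 17 lower and 5 higher. *Fabp2*, a fatty acid binding protein, was at 190, 193, 113 and 137 CPM in early and 1210, 1132, 994 and 835 CPM in basal colon (log2 fold change -2.74, SE 0.20, adjusted p = 4.23e-05). *Alpi*, the intestinal alkaline phosphatase, was at 9.97 to 13.9 CPM in early and 52.9 to 91.7 CPM in basal colon. Its printed promoter holds matches to NF-κB, the interferon-stimulated response element and HNF4, starting 218, 190 and 19 bases before the start. *Slc51a*, a subunit of the basolateral bile acid transporter, was at 0.498 to 1.52 CPM in early and 4.55 to 13.3 CPM in basal colon.

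Enzymes of drug and steroid metabolism fell with them. Of 50 tested genes 13 fell and 4 rose in WT, and 21 fell and none rose in KO colon. *Cyp2c55*, a cytochrome P450 of the mouse colon, was at 440, 446, 275 and 287 CPM in early and 1860, 2447, 1587 and 1327 CPM in basal colon (log2 fold change -2.33, SE 0.24, adjusted p = 0.00011). *Ugt2b5*, a glucuronosyltransferase, was at 1.45 to 3.98 CPM in early and 8.38 to 34.7 CPM in basal colon. *Ugt2b37* and *Ugt2b38* fell by 2.73 and 2.49 on the log2 scale, and reads of these near-identical genes may be divided among them uncertainly. *Adh1*, an alcohol and retinol dehydrogenase, was among the risers at 638, 701, 399 and 509 CPM in early and 130, 182, 157 and 199 CPM in basal colon. In KO colon *Adh1* had log2 fold change -0.10 (adjusted p = 0.938), and the difference between genotypes was not called. *Acads* and *Pdk4*, of short-chain fatty acid oxidation and of the switch from glucose to fat oxidation, fell by 1.25 and 1.57 on the log2 scale. Among 26 genes of fatty acid oxidation and ketogenesis 3 fell, these 2 included, and 1 rose, beside 4.04% and 9.33% of all genes tested.

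Mitochondrial transcripts were lower. *mt-Co3*, the mitochondrially encoded cytochrome oxidase subunit, was at 6028, 6455, 5080 and 5661 CPM in early and 18529, 10598, 11429 and 13130 CPM in basal colon (log2 fold change -1.23, SE 0.19, adjusted p = 0.000796), and it was not called with the spread of all 32 libraries (adjusted p = 0.149). All 13 mitochondrial mRNAs had separate groups, as did 43.8% of all genes tested. Of the 13, 6 were called lower, against 4.04% of all genes tested, or 3 without basal mouse 851. None was called in KO colon. That KO count rests on early mouse 811, with a summed level of 143964 CPM, since the other early KO mice held 43559, 44036 and 67362 CPM and the basal KO mice 87137 to 120061 CPM, and without mouse 811 6 of the 13 were called lower in KO colon. Of 29 nuclear genes of oxidative phosphorylation 3 fell, or 5 without basal mouse 927, among them *Ndufb8* of complex I at 64.2 to 75.1 CPM in early and 159 to 186 CPM in basal colon, and *Cox4i1* of complex IV at 369 to 414 and 850 to 1016 CPM. The largest falls of all were of *Mir6236*, at 123, 53.9, 25.7 and 31.6 CPM in early and 858, 857, 1097 and 1131 CPM in basal colon, and of *Lars2*, at 388, 168, 90.2 and 92.1 CPM in early and 1843, 1711, 1832 and 1868 CPM in basal colon. Both loci hold sequence like that of ribosomal RNA, so counts at them are uncertain as measures of these genes.

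Few crypt genes were called, beside 9.33% higher and 4.04% lower over all genes tested. With lists this short, such counts are not far from those shares. *Lgr5*, the receptor that marks crypt base stem cells, was at 6.60, 6.68, 5.46 and 4.07 CPM in early and 3.05, 3.92, 2.26 and 3.70 CPM in basal colon (log2 fold change 0.80, SE 0.22, adjusted p = 0.0142), which is under the fold threshold, and with early mice 685 and 686 alone it was called (1.02, adjusted p = 0.0106). *Axin2*, a Wnt target, was at 13.0 to 18 CPM in early and 20.1 to 25.6 CPM in basal colon and *Rgmb* at 49.2 to 65.4 and 82.9 to 105 CPM, both also under it. Of 21 genes of stem cells and Wnt targets 1 rose and 1 fell. Of 29 cell cycle genes 1 rose, *Top2a*, the topoisomerase of dividing cells, at 112, 134, 154 and 134 CPM in early and 61.5, 82.5, 53.7 and 60.9 CPM in basal colon. Its log2 fold change of 1.03 was under the threshold without mouse 851, 920, 927 or 805 (0.94 to 0.996), and it was not called over all 32 libraries (adjusted p = 0.208). *Plk2* was the only called gene of 19 p53 targets, at 22.2 to 32.9 CPM in early and 10.1 to 15.8 CPM in basal colon, and it was under the threshold without mouse 851, 918 or 805 (0.94 to 0.99, against 1.04). *Clu*, a marker of epithelial regeneration in mouse, was at 29.7 to 49.8 CPM in early and 10 to 13.5 CPM in basal colon, and 6 of 19 tested wound-associated genes rose.

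Rarer epithelial cells had changes in both directions. Shares over all genes tested were 9.33% higher and 4.04% lower. Of 11 tested tuft cell genes 2 fell, *Sh2d6*, at 0.573 to 2.55 CPM in early and 4.03 to 7.22 CPM in basal colon, and *Trpm5*, the cation channel of taste and tuft cells, at 10.4, 7.51, 1.62 and 3.74 CPM in early and 13.5, 12.6, 17.8 and 19.3 CPM in basal colon. Without basal mouse 918 4 tuft cell genes fell, and without early mouse 685 5. The call of *Trpm5* was lost without mouse 920, 927 or 812 (adjusted p = 0.056 to 0.0589, against 0.0223). Of 19 enteroendocrine genes 4 rose and 2 fell. *Sst*, the peptide somatostatin, was at 7.41 to 11.6 CPM in early and 12.7 to 33.5 CPM in basal colon (log2 fold change -1.44, SE 0.27, adjusted p = 0.00214). *Isl1*, a transcription factor of these cells, was at 1.67 to 2.83 CPM in early and 0.306 to 0.785 CPM in basal colon. *Cldn1*, a claudin of stratified and injured epithelia, was at 1.78 to 1.89 CPM in early and 0.177 to 0.357 CPM in basal colon, 1 of 3 that rose among 16 claudins and tight junction genes. *Cldn3*, the abundant colonocyte claudin, was at 267 to 302 CPM in early and 447 to 575 CPM in basal colon, a difference under the fold threshold.

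Several epithelial genes were called higher in WT but not in KO colon, and they differed between the WT groups that the *Hox* score separates. *Slc37a2*, a sugar-phosphate transporter, was at 340, 474, 22.0 and 71.4 CPM in early and 2.96, 2.09, 2.53 and 3.58 CPM in basal WT colon (log2 fold change 6.31, SE 0.94, adjusted p = 0.000595). In KO colon it was at 9.46, 10.4, 35.1 and 14.0 CPM in early and 149, 39.3, 1.88 and 124 CPM in basal mice, so that 3 of 4 untreated KO mice already held more than every early KO mouse. *Atp12a*, the colonic proton-potassium pump, was at 168, 216, 43.7 and 107 CPM in early and 0.510 to 5.81 CPM in basal WT colon, with log2 fold change -1.06 (adjusted p = 0.608) in KO colon. *Tmprss13*, a membrane serine protease, had 549 counts in early and 2 in basal WT libraries, a ratio of 181 with a counting interval of 49.7 to 1495, and log2 fold change -0.14 in KO colon. *Casp14*, a caspase of cornifying epithelium, was at 5.14, 6.77, 11.2 and 7.25 CPM in early WT colon and had no count in any basal WT library, hence at least 253-fold higher against 3 counts over the basal group. Basal KO mice held *Casp14* at 6.26, 0.545, 0 and 5.93 CPM. *Reg4*, a lectin of enteroendocrine and secretory cells, was at 312, 296, 275 and 151 CPM in early and 14.1 to 26.6 CPM in basal WT colon, and at 134 to 309 CPM in early and 229, 74.0, 19.3 and 314 CPM in basal KO colon. *Hoxd13*, among the most posterior *Hox* genes, was at 8.54, 15.3, 9.87 and 14.0 CPM in early and 0.309, 0, 0.0905 and 0.910 CPM in basal WT colon, with log2 fold change 0.97 (adjusted p = 0.613) in KO colon. The difference between genotypes was not called for any of these genes (adjusted p = 0.0585 for *Slc37a2*). The part of position was not tested beyond the fit with the score.

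**Figure D4:**
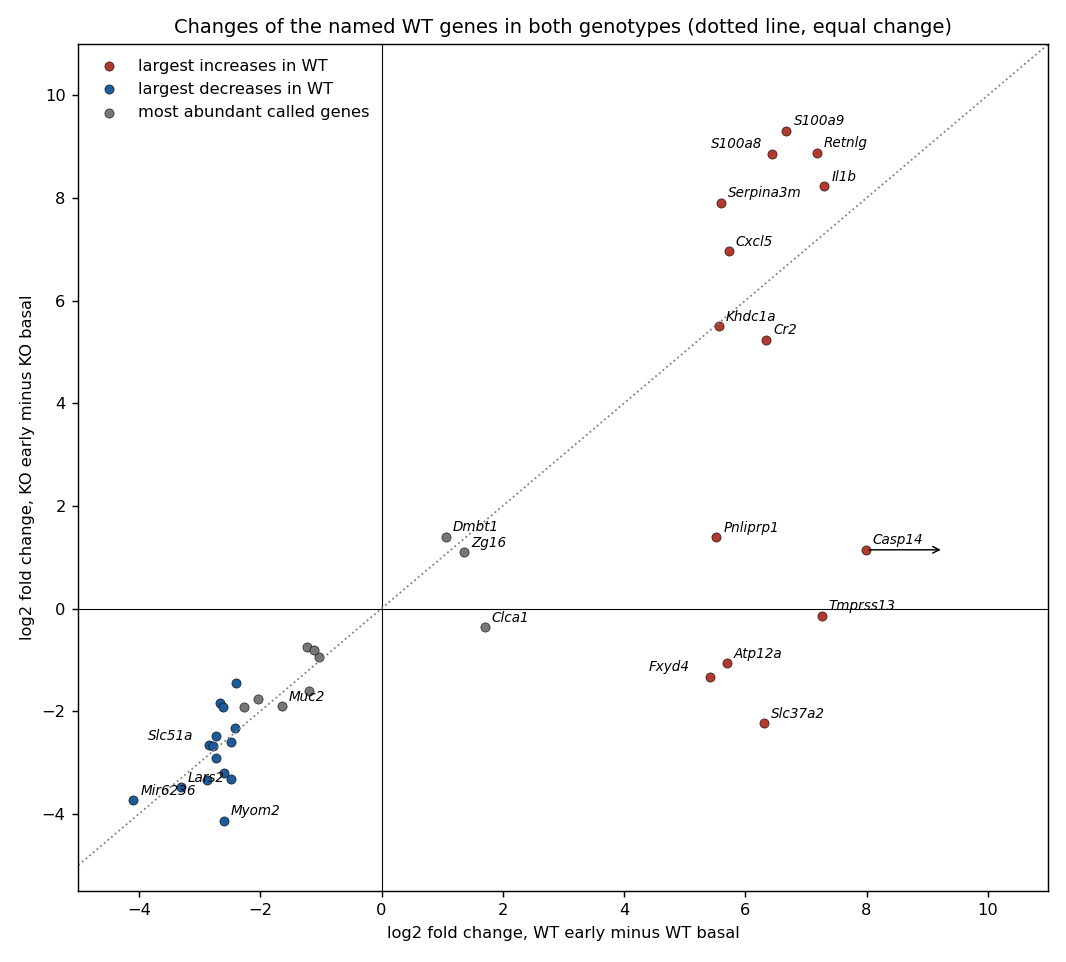
Log2 fold change from basal to early in KO (vertical axis) against that in WT (horizontal axis) for genes among the largest increases, the largest decreases and the most abundant called genes of WT, 1 point per gene, with equal change on the dotted line. *Casp14* is drawn at its lower bound with an arrow, since basal WT libraries held no count of it. Neutrophil genes lie above the line, and *Slc37a2*, *Atp12a*, *Fxyd4*, *Tmprss13* and *Casp14* lie between -2.23 and 1.14 on the vertical axis.

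In KO colon, tested in the same way between its own early and basal mice, 1718 of 19191 genes rose (8.95%) and 483 fell (2.52%). Both genotypes had 1091 rises in common, 63.0% of those in WT and 63.5% of those in KO, and 243 falls, 32.4% and 50.3%. Of the WT risers tested in KO colon, 1607 of 1707 had a log2 fold change above 0 there, and of the WT fallers 707 of 733 had one below 0. Only 3 genes were called in opposite directions. The difference between genotypes in the change was tested in all 16 libraries, and 6 of 20149 genes (0.0298%) were called. The count was 169 with DESeq2 and 0 without any single one of WT mice 685, 686, 851, 918, 920 and 927. It was 41 without early mouse 805, 44 without basal KO mouse 872, 33 without early KO mouse 811 and 0 without KO mouse 852, 915, 803 or 813. These genes were chosen after their values were seen. Among them *Gal3st2*, *Gal3st2b* and *Gal3st2c*, sulfotransferases that lie side by side on chromosome 1 and share sequence, rose in WT and had log2 fold changes of 0.38, 0.33 and -0.01 in KO colon. *Gal3st2* was at 94.6, 77.4, 37.9 and 62.8 CPM in early and 4.39 to 6.27 CPM in basal WT colon. KO mice held it at 15.2 to 41.5 CPM in early and 12.8 to 29.7 CPM in basal colon. *Foxq1*, a forkhead factor, was at 4.28 to 6.05 CPM in early and 0.662 to 1.02 CPM in basal WT colon. Its KO levels were 2.98 to 4.24 CPM in early and 2.09 to 3.63 CPM in basal colon. *Itih2* and the metal transporter gene *Slc30a10* fell in KO colon (-2.01 and -5.34), while in WT *Itih2* rose (2.46) and *Slc30a10* did not pass the test (-0.62, adjusted p = 0.224). Basal *Itih2* was at 1.91 to 5.96 CPM in KO and 0.95 to 1.83 CPM in WT mice. Except for *Slc30a10*, whose basal groups overlapped, every basal KO mouse lay above every basal WT mouse for these genes. The genotypes thus differed in them before treatment. Thus most WT changes had the same sign in KO colon, and few differences between genotypes in the change could be called with 4 mice a group.

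Late WT colon, which had 3 cycles, was read only for its levels. *Il1b* was at 5.58, 23.7, 5.88 and 2.25 CPM and *S100a9* at 1.54 to 18.7 CPM there, above every basal mouse and below early mice 805 and 812. *Lyz2* was at 366 to 572 CPM and *H2-Aa* at 367 to 657 CPM, near or above the early levels. *Muc2* was at 3282 to 4691 CPM and *Guca2a* at 484, 510, 741 and 1901 CPM, all below the basal values, and *Clca1* was at 7721 to 20231 CPM, above them. *Slc37a2* was at 12.4 to 100 CPM and *Casp14* at 1.73 to 7.51 CPM in the same mice. The library of late mouse 581 stood apart, with 14.8% mitochondrially encoded mRNA, against 5.37% to 5.77% in the other late WT libraries. Its top 10 genes took 24.8% of counts, against 9.99% to 11.1% in the others.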

How the data were processed

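Whole colon RNA was sequenced by the authors as single-end 75-nt reads. According to the study's methods and processing notes, reads were checked with FastQC (0.11.5), aligned with STAR to mm10 and counted per gene of GENCODE with Subread. The deposited values are raw counts, 1 column per mouse, and whether counting used strand is not given in the sources used here. Gene positions came from GENCODE M21 on the same build, and promoters from RefSeq.

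Counts were filtered with filterByExpr, scaled by TMM and tested with edgeR 4.0.16 (glmQLFit and glmQLFTest, R 4.3.3) among the 8 WT libraries, the 8 KO libraries and, for the difference between genotypes, all 16. Replicates are mice with separate numbers. In simulated counts of 18570 genes edgeR recovered 97 of 100 genes changed by 3 and 88 of 100 changed by 1.5 on the log2 scale. There were 12 false calls among the genes left unchanged. Alternatives were DESeq2 1.42.0, other scaling, filters and fits, the *Hox* score, and leaving out mice.

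Genes were named by rule: the 15 largest increases and 15 largest decreases among DEGs with separate groups and at least 1 CPM, the 10 most abundant DEGs, for each of 50 lists the 6 genes of lowest p at most, and a few markers. *Reg3b*, *Reg3g*, *Cxcl10*, *Cdx2*, *Krt8* and the 6 genes of the genotype difference were added after their values were seen. The comparison and the lists were chosen with earlier results of these data known. A few results that the rule would name are not reported here.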

Additional observations from a re-analysis of the deposited data

Results flagged for a closer look

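Among 232 sets of 4 mice examined for the named genes, 1 set per gene and group, 14 had 1 mouse far from the other 3, and chance gives about 1 in 20 such sets. Basal mouse 918 stood highest for *Car1* (5993 CPM), *Reg3b* (53 CPM) and *Reg3g* (33.4 CPM) and lowest for *Ccl11* (1.48 CPM). Basal mouse 927 stood highest for *Ciita* (2.45 CPM), *Selplg* (4.02 CPM), *Ighd* (0.628 CPM) and *Ccl3* (0.0628 CPM). Basal mouse 851 stood lowest for *Nos2* (0.662 CPM) and *S100a9* (0.0883 CPM). Among early mice, mouse 805 stood highest for *Cxcl1* (8.65 CPM) and lowest for *Ugt2b37* (0.150 CPM), mouse 812 highest for *Slc9a3* (211 CPM) and mouse 686 highest for *Cldn3* (302 CPM). Leaving out any single WT mouse turned the direction of no named gene.

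In the main fit the change from basal to early colon differed between genotypes, by the test of the difference itself, for 6 genes. The count was 0 to 44 when single mice were left out and 169 with DESeq2. On the log2 scale the WT change exceeded the KO change by 3.26 for *Gal3st2*, 3.48 for *Gal3st2b*, 4.53 for *Gal3st2c*, 4.72 for *Slc30a10*, 4.47 for *Itih2* and 2.18 for *Foxq1*. The first 3 are neighbouring, near-identical genes whose reads may be shared. Except for *Slc30a10*, every basal KO mouse lay above every basal WT mouse for these genes. The WT groups differed in the posterior *Hox* score (1.62 to 1.90 in early and 0.354 to 0.908 in basal colon) and the KO groups overlapped in it, and with the score in the fit no gene was called.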

How the results depend on the processing

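The *Hox* score as a covariate changed most: 171 genes higher and 268 lower in WT, 55 shared with KO, no genotype difference, and *Dnase1l3* at 0.94 (adjusted p = 0.458). In KO colon the same covariate gave 1634 genes higher and 421 lower, against 1718 and 483 without it. In WT the direction turned for *Atp12a* (-2.19), *Car1* (0.63), *Ccl21a* (-0.10), *Clca1* (-1.16), *Fxyd4* (-0.44), *Hoxd13* (-0.11), *Isl1* (-0.16), *Krt8* (0.10), *Ugt2b37* (0.091), *Ugt2b38* (0.53) and *Vip* (-0.049). The turn of *Hoxd13*, itself a posterior *Hox* gene, was not independent of the score. Of 115 named genes 90 kept their direction and lost their call. The cause was not tested. DESeq2 (1731 and 756), other size factors, the fit without the legacy option, no filter (2234 and 869), a minimum of 1 CPM (1399 and 556) and the fit without immunoglobulin genes turned no named gene and lost no named call. The fit of all 32 libraries gave 1745 higher and 579 lower and lost 8 named calls.

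The genotype difference was called for 6 genes, against 169 with DESeq2, 23 with all 32 libraries, 12 without the legacy option, 21 without the filter and 10 without immunoglobulin genes. Leaving out single mice gave 1663 to 1919 genes higher and 684 to 965 lower in WT, 1463 to 2288 and 305 to 743 in KO, 1109 to 1591 shared, 0 to 44 for the genotype difference and 1.38 to 1.70 for *Dnase1l3*. Of the named genes, only *Dmbt1*, *Plk2*, *Reg3g*, *Top2a*, *Trpm5* and *Vip* lost a call in this way.

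Chosen after seeing the data, early mice 685 and 686 alone gave 1600 higher and 662 lower, and mice 805 and 812 alone 1887 and 1040. Of the 1733 and 750, 1234 and 455 were called in both. Each pair was set against the same basal mice, and the 1733 and 750 genes were picked from the fit that holds both pairs. The overlap was therefore largely fixed in advance and is no independent check of these calls. No paired analysis was possible because early and basal mice share no replicate number. Of 28 inflammatory cytokines 9 passed the filter on low counts.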

Other observations

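Gene families outside the lists described moved as follows between WT early and WT basal colon, in counts of genes called higher or lower beside the background of 9.33% and 4.04%. Among antibody gene segments, 58 of 83 tested heavy chain variable segments rose and none fell, at a median log2 change of 2.83, and 46 of 77 kappa variable segments rose and 1 fell. Of these segments 11 and 22 rose in KO colon. Families of immune cell receptors rose in part or in full: 6 of 6 tested Lilr and Pir genes, 9 of 10 Fc receptors, 4 of 5 Siglecs, 12 of 15 *Ms4a* genes and 13 of 20 C-type lectins, with none lower. Of 12 Toll-like receptors 6 rose. Of 37 collagens 18 rose and 1 fell, and of 23 serpins 13 rose.

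Other families stayed near the background or leaned to falls. Among long non-coding RNAs 62 of 926 rose and 106 fell, and in KO colon 20 rose and 54 fell. All 6 tested *Ugt2b* genes fell in KO colon and 4 of them in WT. Of 287 solute carriers 30 rose and 22 fell. Cytosolic ribosomal protein genes had a median log2 change of -0.42 in WT and 0.05 in KO colon, with 1 of 86 called in WT, while zinc finger *Zfp* genes had 0.32 and -0.01, with 13 of 366 higher and 5 lower in WT.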
